A study of Mus musculus with 6 samples.

Results

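Promoters of long intergenic noncoding RNA genes (lincRNA genes) were described in single-cell ATAC-seq of mouse olfactory cells marked by lineage tracing, before and 24 h after chemical injury. A promoter was the window of 1 kb either side of the 5′-most start of a gene of type lincRNA in GENCODE M21 on chromosomes 1 to 19 (GRCm38), and windows with a protein-coding start within 2 kb were left out. Of 5209 lincRNA genes on these chromosomes, 478 were left out and 4731 stayed as members. They were compared with the windows of 20807 protein-coding genes, so that 25538 windows were counted in all.

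The cells came from adult mice that carried Krt5-CreER and Rosa26 LSL-YFP/LSL-YFP. Cre runs from the promoter of Krt5, a keratin of basal cells, so YFP marks these cells and whatever descends from them, and the sort for YFP-positive, propidium iodide-negative cells cannot separate them. The 3 uninjured samples were controls, and the 3 injured samples were collected 24 h after intraperitoneal methimazole, which destroys much of the epithelium above the basal cells. Mice were 8 weeks old for replicate 1, 6 weeks for replicate 2 and 6 to 7 weeks for replicate 3 in both groups. All 6 samples carried both alleles. The labels call the samples biological replicates, while the sources used here do not give strain, sex or the number of mice per sample.

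Long intergenic noncoding RNA genes are transcribed by RNA polymerase II and often spliced, but they encode no known protein. Their promoters are known to be weaker and more restricted to single cell types than protein-coding ones, and many start close to enhancers. In ATAC-seq the Tn5 transposase cuts where DNA is not covered by nucleosomes, so cut sites at a start measure how open it is and not how much RNA is made. Horizontal basal cells are the reserve stem cells of the olfactory epithelium, which leave quiescence when the tissue is injured.

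The members were mostly loci without a given name. Of the 4731, 4229 had names of the Gm or Rik kind, 4472 had a transcript with 2 or more exons, and 218 started inside a protein-coding gene. Their median distance to a protein-coding start was 65544 bp. Windows of 242 members overlapped that of another member, so such neighbours shared cut sites. Next to the edge of the rule, 98 lincRNA genes left out at 1 to 2 kb from a protein-coding start had a median of 1.39 CPM (cut sites of a window per 1000000 of its library, scaled as explained with the depths), and 79 members at 2 to 3 kb had a median of 0.925 CPM.

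The sequences of 6 members are shown because their changes after injury were large, 3 in each direction. They were taken from the called members with a mean of at least 5 CPM and no overlap between the groups, and less open members had larger changes. Each is the stretch from 250 bases before to 50 after the start, 5′ to 3′ on the gene's strand, from the RefSeq copy of GRCm38. Capitals mark a match to TGANTCA, the AP-1 consensus, which reads the same on both strands. AP-1 factors are dimers of Fos and Jun proteins that bind this site and are known to act early in the response to injury. The first 3 rose after injury and lie at chr5:124052303-124052602 (minus strand), chr1:120758193-120758492 (plus) and chr4:89039143-89039442 (minus). The last 3 fell and lie at chr14:65172105-65172404 (plus), chr14:25143192-25143491 (minus) and chr8:12719078-12719377 (minus).
Gm43661: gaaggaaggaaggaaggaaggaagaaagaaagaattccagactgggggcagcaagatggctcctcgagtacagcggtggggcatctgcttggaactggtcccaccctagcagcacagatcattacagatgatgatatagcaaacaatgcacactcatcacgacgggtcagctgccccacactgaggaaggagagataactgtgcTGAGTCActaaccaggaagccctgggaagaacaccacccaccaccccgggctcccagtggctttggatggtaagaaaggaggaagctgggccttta
Gm29346: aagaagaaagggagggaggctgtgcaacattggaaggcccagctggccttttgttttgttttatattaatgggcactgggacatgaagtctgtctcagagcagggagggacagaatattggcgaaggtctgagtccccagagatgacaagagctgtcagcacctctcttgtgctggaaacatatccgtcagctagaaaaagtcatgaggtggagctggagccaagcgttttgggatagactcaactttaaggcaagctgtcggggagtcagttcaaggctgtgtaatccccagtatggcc
AL805899.2: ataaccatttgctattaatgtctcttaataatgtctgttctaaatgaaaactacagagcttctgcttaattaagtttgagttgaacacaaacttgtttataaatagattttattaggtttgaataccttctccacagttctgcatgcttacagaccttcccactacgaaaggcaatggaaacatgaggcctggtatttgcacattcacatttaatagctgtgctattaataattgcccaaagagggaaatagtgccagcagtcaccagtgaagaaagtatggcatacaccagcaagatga
Gm41177: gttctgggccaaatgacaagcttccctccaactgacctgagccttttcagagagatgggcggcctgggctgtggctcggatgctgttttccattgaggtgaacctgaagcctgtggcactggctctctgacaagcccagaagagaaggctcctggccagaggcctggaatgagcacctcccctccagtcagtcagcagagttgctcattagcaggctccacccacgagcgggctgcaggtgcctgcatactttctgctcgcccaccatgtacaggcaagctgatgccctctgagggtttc
4930572O13Rik: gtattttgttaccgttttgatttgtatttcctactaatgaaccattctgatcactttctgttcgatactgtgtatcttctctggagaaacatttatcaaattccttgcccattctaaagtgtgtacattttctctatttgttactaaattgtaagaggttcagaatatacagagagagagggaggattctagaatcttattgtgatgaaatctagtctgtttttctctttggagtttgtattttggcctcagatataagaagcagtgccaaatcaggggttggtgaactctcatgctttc
Gm15348: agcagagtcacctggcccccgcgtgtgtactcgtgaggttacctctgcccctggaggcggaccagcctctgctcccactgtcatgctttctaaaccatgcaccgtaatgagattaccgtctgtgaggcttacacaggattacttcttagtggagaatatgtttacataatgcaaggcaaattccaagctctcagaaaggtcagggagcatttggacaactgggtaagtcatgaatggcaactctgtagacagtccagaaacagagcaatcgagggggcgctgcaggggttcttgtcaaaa
In the 3 rising promoters 1 match lay in these 300 bases, in Gm43661. In the 3 falling promoters no match lay in them. The window of 1 kb either side held more, and the matches nearest to the most open 100 bp are shown for 7 of the 8 members with the largest rises, since Gm47389 held none in its window. Each is given as 27 bases on the gene's strand with the match in capitals, and the number of bases between the match and the centre of the most open 100 bp follows in the text.
Gm43661: ataactgtgcTGAGTCActaaccagga
Gm29346: caccatcttcTGAGTCAcccttctgtc
AL805899.2: aaggcagggaTGAGTCAggaggatatg
Gm33968: cccaccaccaTGACTCAccatgtcaat
Gm28199: accagagggcTGAGTCActgcgcccgc
Gm48912: tccaaccctgTGACTCAggagcctcag
Gm19510: cactctagggTGAGTCAgttcagcctt
They lie at chr5:124052382-124052408 (minus strand), chr1:120757690-120757716 (plus strand), chr4:89039083-89039109 (minus strand), chr8:34524067-34524093 (plus strand), chr1:90975184-90975210 (minus strand), chr14:46516427-46516453 (minus strand) and chr15:59795900-59795926 (minus strand), in this order. The distance from the match to the centre of the most open 100 bp was 13 bp in Gm43661, 10 bp in Gm29346, 94 bp in AL805899.2, 12 bp in Gm33968, 13 bp in Gm28199, 28 bp in Gm48912 and 24 bp in Gm19510. In 6 of these 7 the match thus lay within the 100 bp, which is a description of letters and not a measure of binding.

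Depth and cell makeup differed among the samples. Barcodes with 2000 or more fragments numbered 420 to 1338 per sample, and both ends of their fragments gave 14515956 to 43818036 cut sites on chromosomes 1 to 19. CPM values follow edgeR's TMM scaling. Uninjured replicate 3 and injured replicate 3 shared 34 barcodes, and 97.2% of the fragments in the smaller copies were the same. Other pairs of samples shared 0 to 4 barcodes, and the smaller copies of these held up to 91.7% of the same fragments, in the 1 barcode of injured replicates 1 and 2. Why libraries share fragments was not tested. Counts of calls are also given without the shared barcodes, while levels by cell class were not recomputed without them. Clusters in which markers of horizontal basal cells stood highest held 70.9%, 61.5% and 21.6% of the barcodes of the 3 uninjured samples, in order of replicate, and 74.5%, 60.2% and 19.7% of those of the 3 injured samples. In both samples of replicate 3 most barcodes thus lay in other clusters, 8 of which stayed unnamed, so their cell type is not settled. Summed over 10 promoters of horizontal basal cell markers, the level was 182 to 236 CPM in uninjured and 155 to 207 CPM in injured samples, and every marker of the list had cut sites.

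lincRNA promoters were less open than protein-coding ones. The median member had 0.391 CPM and the median protein-coding window 9.56 CPM. At least 1 CPM was reached by 29.6% of members and 69.2% of protein-coding windows, and at least 20 CPM by 107 members (2.26%) and 31.0% of protein-coding windows. In all 6 samples 34 members had no cut site. Windows rich in CpG dinucleotides (GC of 50% or more and CpG observed over expected of 0.6 or more) made up 1.35% of members and 30.8% of protein-coding windows. The 64 CpG-rich members had a median of 17.8 CPM, against 0.384 CPM in the others. Members far from coding genes were the least open, with a median of 0.794 CPM at 2 to 10 kb from a protein-coding start, 0.511 at 10 to 50 kb, 0.388 at 50 to 200 kb and 0.238 beyond 200 kb.

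The 3 most open members sit at 1 place on chromosome 17. Gm42418 (chr17:39845958-39847958) had 1198, 1030 and 872 CPM in uninjured and 640, 797 and 907 CPM in injured samples. AY036118 (chr17:39847035-39849035) starts on the other strand in an overlapping window and had 1168, 1033 and 862 CPM against 616, 805 and 918 CPM. Gm26917 (chr17:39842013-39844013) had 743, 662 and 559 CPM against 456, 513 and 589 CPM. Over all cells the groups overlapped in all 3, and none was called (edgeR adjusted p 0.114, 0.146 and 0.113). In cells of the horizontal basal cell clusters all 3 lay lower in every injured sample than in any uninjured one. Gm42418 had 1355, 1107 and 1657 CPM there in uninjured and 523, 671 and 552 CPM in injured samples, without TMM. RefSeq lists Gm42418 as another name of Rn18s-rs5, a pseudogene related to 18S ribosomal RNA at chr17:39846354-39848202. Reads from near-identical ribosomal copies could fall here, so these levels are uncertain. The next most open members were Gm6410, with 67.4 CPM over the 6 samples, and Neat1, the RNA that scaffolds paraspeckles, with 59.4 CPM.

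The locus on chromosome 17 also took part in the members' share of all cut sites. Before injury it held 20.1 ± 2.31% (SD, n = 3) of all cut sites in member windows, and after injury 14.3 ± 2.69%. With it, member windows took 1.28%, 1.21% and 1.20% of cut sites in uninjured and 1.10%, 1.07% and 1.17% in injured samples, a fall in which the groups did not overlap (two-sided exact permutation test, p = 0.1, the smallest that 3 against 3 can give). Without its 3 windows, left out after the data were seen, the shares were 0.981 ± 0.0113% and 0.952 ± 0.0355% (SD, n = 3 each), and the groups overlapped (exact permutation p = 0.3). Protein-coding windows took 28.7 ± 0.796% of cut sites in uninjured and 22.9 ± 1.34% in injured samples (exact permutation p = 0.1). Relative to these, members without the locus took 3.42 ± 0.0569 cut sites per 100 in uninjured and 4.16 ± 0.190 in injured samples, and every injured sample lay above every uninjured one (exact permutation p = 0.1).

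Cut sites peaked at lincRNA starts, less sharply than at protein-coding ones. Enrichment was the density of cut sites within 100 bp of the start over that 900 to 1000 bp away. At members it was 2.37, 2.31 and 2.44 in uninjured and 2.56, 2.29 and 2.47 in injured samples, and the groups overlapped (exact two-sided permutation p = 0.5). At protein-coding starts the uninjured samples had 10.2 ± 0.433 (SD, n = 3) and the injured ones 8.99 ± 0.779 (exact permutation p = 0.2). Without the locus on chromosome 17 the members' enrichment was 3.03 ± 0.106 and 2.91 ± 0.168, with the direction turned and the groups still overlapping (exact permutation p = 0.5).

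**Figure D1:**
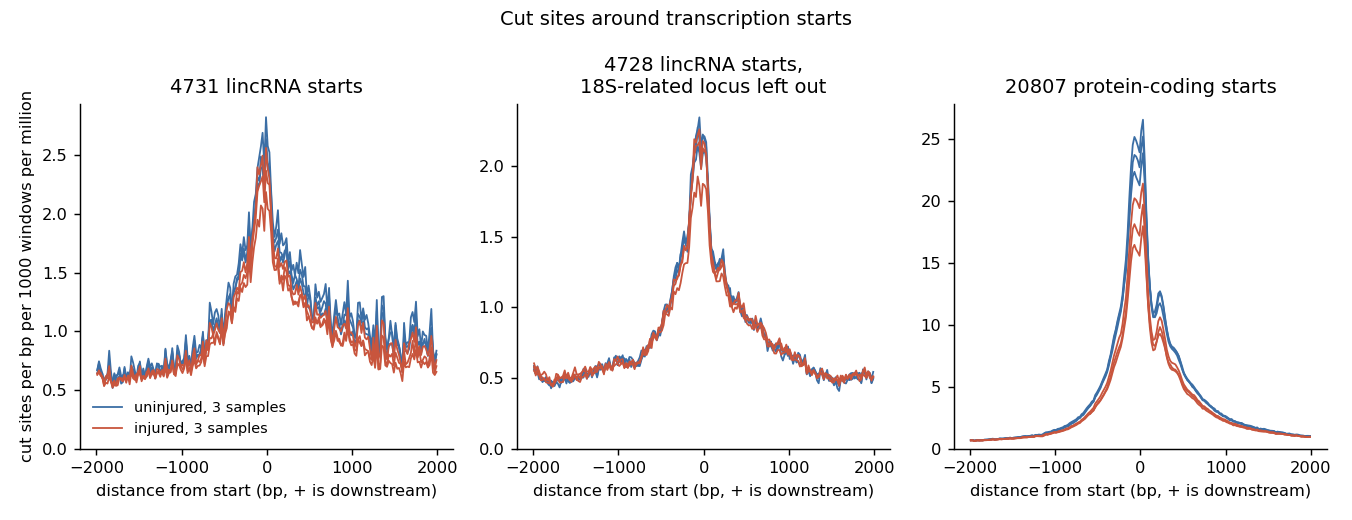
Cut sites per bp and 1000 windows, per 1000000 cut sites of the sample (y axis, a different range in each panel) against distance from the transcription start in bp (x axis) for 4731 lincRNA starts, the same without the 3 windows of the chromosome 17 locus, and 20807 protein-coding starts; each line is 1 sample. All 3 panels peak at the start, and the peak of the protein-coding panel is the tallest over its flanks.

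The main comparison asked which lincRNA promoters gain or lose openness 24 h after injury, and most that changed had gained. Of the members, 2745 (58.0%) passed the filter on low counts and were tested together with 16621 protein-coding windows (79.9%). With edgeR's quasi-likelihood test and Benjamini-Hochberg adjustment over all 19366 windows, 167 members rose at an adjusted p under 0.05, which is 6.08% of those tested, and 27 fell, which is 0.984%. Over all windows tested, 2.75% rose and 2.15% fell, and over protein-coding windows 2.2% rose and 2.34% fell. The filter can favour windows that are open in only 1 group. Shares are also given in ranges of mean CPM over the 6 samples. That mean includes the injured samples, so a rise lifts the range of its own window. The ranges thus do not match windows by their level before injury and do not remove what the filter favours. Under 1 CPM, where 1346 of the members tested lay, 1.49% of members and 1.08% of protein-coding windows rose. The share that rose was 9.62% of members and 4.97% of protein-coding windows at a mean of 1 to 5 CPM, 13.6% and 3.05% at 5 to 20 CPM, and 7.48% and 0.806% at 20 CPM or more. The share that fell was 0% of both under 1 CPM, 1.19% of members and 0.370% of protein-coding windows at 1 to 5 CPM, 2.72% and 0.997% at 5 to 20 CPM, and 5.61% and 5.04% at 20 CPM or more. Within these ranges the members' share of falls was thus not the lower one. Groups did not overlap in 25.6% of members tested, against 28.2% of all windows.

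These directions are relative to the scaling. TMM holds the typical window constant, and the median log2 change was 0.0022 over all windows tested, 0.29 over members and -0.017 over protein-coding windows. With TMM factors taken from bins of 10 kb over the genome the median over all windows moved to -0.51, and 179 members were higher (6.52%, beside 2.24% of all windows) and 345 lower (12.6%, beside 50.3%), so the higher share of member calls moved from 86.1% to 34.2%. Protein-coding windows then gave 254 higher (1.53%) and 9401 lower (56.6%). With total cut sites alone the median over all windows was -0.26, with 228 members higher (8.31%, beside 3.19% of all windows) and 183 lower (6.67%, beside 33.2%). Of the 167 members called higher, 141 were also called higher with the 10 kb bins and 162 with total cut sites, and all 27 called lower were called lower under both. Of the 167, 1 turned direction with the bins, Gm45605 (log2 change 0.39, edgeR adjusted p 0.0446, against -0.12, adjusted p 0.563). DESeq2 called 237 members higher of 2178 tested (10.9%, beside 4.66% of all windows) and 46 lower (2.11%, beside 3.57%).

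**Figure D2:**
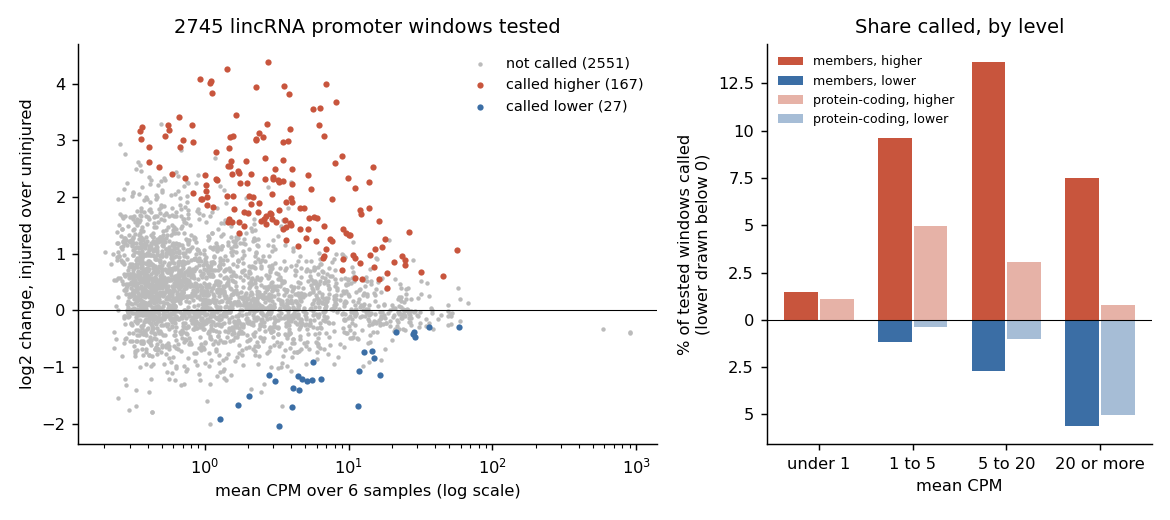
Left, log2 change after injury (y axis) against mean CPM over the 6 samples (x axis, log scale) for the 2745 members tested, 1 point per member. Right, share of tested windows called higher (above 0) or lower (below 0) in 4 ranges of mean CPM, members beside protein-coding windows. The mean is over the 6 samples, so the change itself enters the range. Members exceed protein-coding windows in the share called higher in every range.

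The 8 members with the largest rises were taken from those of at least 5 CPM and with no overlap between the groups. In uninjured samples they had means of 0.836 to 2.35 CPM. Over the 6 samples the median was 0.391 CPM for all members and 1.03 CPM for members tested. Gm43661, on chromosome 5 at 20082 bp from the start of Vps37b, a gene of endosomal sorting, had 0.991, 0.438 and 1.08 CPM in uninjured and 17.5, 15.7 and 5.88 CPM in injured samples. This came from 16, 15 and 37 cut sites against 678, 318 and 201. Every injured sample was high, the third less so, and the log2 change was 3.99 ± 0.47 (SE, edgeR adjusted p 0.00247). Its most open 100 bp had its centre 30 bp before the start.

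Gm29346, on chromosome 1, lies 156025 bp from En1, a homeobox gene. It had 1.36, 1.34 and 0.875 CPM in uninjured and 20.001, 17.8 and 7.55 CPM in injured samples, and the groups did not overlap. The log2 change was 3.68 ± 0.38 (SE, edgeR adjusted p 0.000944). Its most open 100 bp lay 730 bp before the start, over the 6 samples together. With 500 bp either side of the start, which leaves that place out, the log2 change was 3.89 (edgeR adjusted p 0.00116). Gm33968, on chromosome 8 at 283979 bp from Dusp4, a phosphatase of MAP kinases, had 0.558, 0.584 and 1.43 CPM against 14.8, 10.5 and 6.06 CPM. Again the injured samples stood clear of the uninjured ones, and the most open 100 bp lay off the start, 750 bp downstream.

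Gm48912, on chromosome 14 at 125773 bp from Bmp4, a secreted growth factor, had 1.36, 1.55 and 1.37 CPM in uninjured and 15.1, 13.9 and 7.49 CPM in injured samples. The uninjured samples had an SD of 0.104 CPM (n = 3), and the log2 change was 3.08 ± 0.28 (SE, edgeR adjusted p 0.000371). Gm47389, on chromosome 10 at 187057 bp from Prdm1, a transcriptional repressor, had 2.23, 2.28 and 2.54 CPM against 19.7, 16.7 and 10.2 CPM. It was the 1 member of the 8 without an AP-1 match, and it rose by 2.72 ± 0.24 on the log2 scale (SE, edgeR adjusted p 0.000371). The other 3 were AL805899.2 near Mtap, Gm28199 near Rab17 and Gm19510 near Trib1, with log2 changes of 3.57, 3.27 and 2.60. In all 8 the third injured replicate was the lowest of the injured samples and still above every uninjured one.

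**Figure D3:**
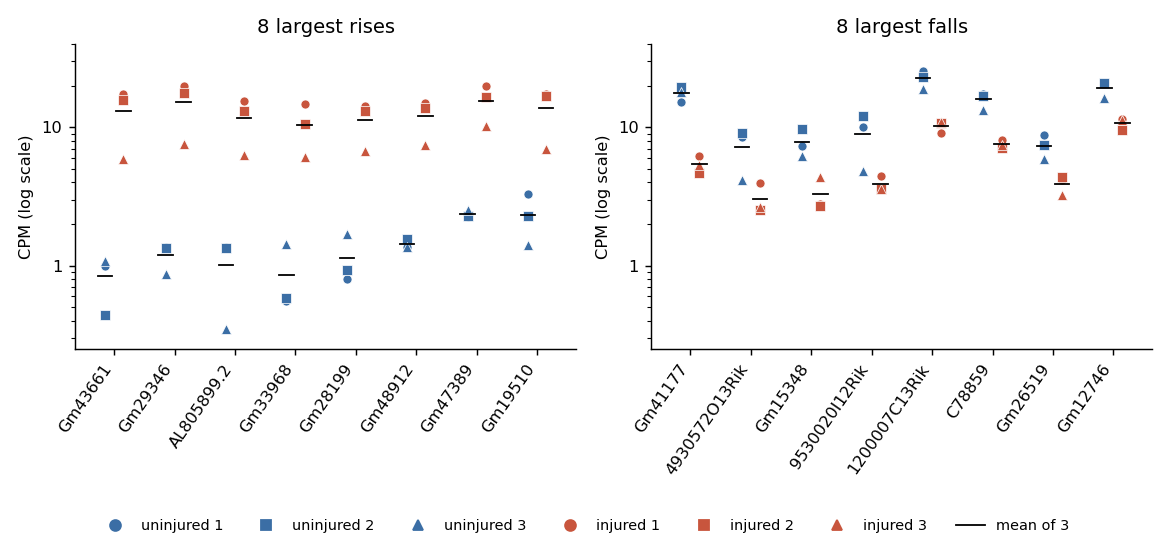
CPM per sample (y axis, log scale) of the 8 members with the largest rises (left) and the 8 with the largest falls (right); colour gives the group, marker shape the replicate and the black bar the mean of 3. Groups do not overlap in any of the 16, and injured replicate 3 lies below the other injured samples in each rise.

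The falls were smaller. Gm41177, on chromosome 14 at 22500 bp from Extl3, an enzyme of heparan sulfate synthesis, had 15.3, 19.4 and 18.1 CPM in uninjured and 6.24, 4.69 and 5.39 CPM in injured samples. The injured samples lay together well below the others, and the log2 change was -1.69 ± 0.16 (SE, edgeR adjusted p 0.000371). 1200007C13Rik, on chromosome 2 at 98411 bp from Ptpn1, a tyrosine phosphatase, had 25.7, 23.1 and 18.99 CPM against 9.07, 10.7 and 11.005 CPM. It fell by 1.13 ± 0.13 on the log2 scale (SE, edgeR adjusted p 0.000786).

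C78859, on chromosome 8 at 7043 bp from Slc12a3, a sodium and chloride cotransporter, had 17.5, 16.8 and 13.4 CPM against 8.12, 7.07 and 7.49 CPM. Its injured values were close to each other and all below the lowest uninjured one. The remaining falls were 4930572O13Rik, Gm15348, 9530020I12Rik, Gm26519 and Gm12746, with log2 changes of -1.24, -1.23, -1.20, -0.91 and -0.83. Of these, Gm26519 lost its call in windows of 500 bp either side of the start (log2 change -0.40, edgeR adjusted p 0.735), and 4930572O13Rik did so too (-1.12, adjusted p 0.0753). Without single samples 4930572O13Rik, Gm15348, 9530020I12Rik and Gm26519 also lost theirs, with uninjured replicate 1 or 2 or injured replicate 1 or 2 left out, and 9530020I12Rik and Gm26519 also without injured replicate 3.

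Over all calls, the rises were the larger changes, in members as in protein-coding windows. The 167 rises had a median log2 change of 2.00, from 0.39 to 4.38, and 84 of them were above 4-fold. The 27 falls had a median of -1.15, from -2.04 to -0.29, and 1 was above 4-fold. Protein-coding windows had medians of 1.28 in rises and -0.38 in falls, so this order is not particular to members. Changes above 4-fold were not counted over all windows. Rises lay on all 19 chromosomes and falls on 14. Single calls can hide the few strong promoters, so 2 members outside the naming rule were added after their values were seen. Gm16046, with a mean of 57.0 CPM, rose by 1.06 on the log2 scale (edgeR adjusted p 0.00652), and 6720427I07Rik, with 58.0 CPM, fell by 0.29 (adjusted p 0.0457).

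The counts moved when a library was left out. Each such fit sets 2 samples against 3, and shares over all windows are not given for it. These counts thus do not tell the members apart from windows in general. Without injured replicate 2 there were 44 rises and 4 falls, without injured replicate 1 57 and 5, without uninjured replicate 1 63 and 5, and without uninjured replicate 2 88 and 9. Without injured replicate 3 there were 269 rises and 47 falls, and without uninjured replicate 3 173 and 47. With the shared barcodes left out of the shallower library there were 168 rises and 27 falls.

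Of 27 well-known long noncoding RNAs tested from 7 lists, 2 passed the test (7.41%), beside 4.9% of all windows tested. At an unadjusted p under 0.05 there were 7 of the 27, beside 22.8% of all windows, and 1 of the 7 was Gm26917 of the uncertain chromosome 17 locus. Of 5 nuclear and abundant ones 1 fell, beside 2.15% of all windows. Malat1, an RNA of nuclear speckles, went from 33.7, 28.2 and 34.2 CPM to 22.4, 25.0 and 24.6 CPM. The groups did not overlap, and the log2 change was -0.42 ± 0.096 (SE, edgeR adjusted p 0.0283). Its call was lost without 4 of the 6 samples (uninjured replicate 1 or 3, injured replicate 1 or 2) and with windows of 500 bp either side. Neat1 was at 66.6, 57.1 and 65.9 CPM against 59.3, 52.3 and 55.1 CPM with overlapping groups (log2 change -0.18, edgeR adjusted p 0.196).

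Of 9 members linked to growth and stress, 1 rose, against 2.75% of all windows. Gm14005, also called Morrbid and known for its part in the survival of short-lived myeloid cells, had 0.496, 0.175 and 0.321 CPM in uninjured and 1.39, 1.33 and 1.26 CPM in injured samples. The level was low in both groups, from 8, 6 and 11 cut sites in the uninjured samples, and the log2 change was 2.07 ± 0.52 (SE, edgeR adjusted p 0.0390). The call was lost when any sample other than injured replicate 3 was left out. Summed over 8 promoters of immune markers, the level was 2.48 to 3.53 CPM in uninjured and 6.44 to 8.89 CPM in injured samples, and the part of those cells in the change of Gm14005 was not tested. In basal-like cells alone Gm14005 had 0.231, 0.211 and 0 CPM in uninjured and 1.59, 1.17 and 2.17 CPM in injured samples, without TMM. Its log2 change of 3.33 there thus rests on uninjured levels near 0. Pvt1, near Myc, and Trp53cor1, a target of p53, did not pass (log2 changes 0.52 and 0.074).

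No other list had a call by edgeR, and with 1 to 10 members tested per list this is near the shares over all windows. Of 10 microRNA host genes 0 passed, with 2 at an unadjusted p under 0.05 (Mir142hg and Mir670hg), and DESeq2 called 1, Mir670hg. This host gene had 4.40, 4.17 and 4.32 CPM in uninjured and 8.27, 5.39 and 8.17 CPM in injured samples, with no overlap (log2 change 0.77 ± 0.23, SE, edgeR adjusted p 0.0691). Of 4 snoRNA host genes 0 passed by edgeR or DESeq2, and 0 had an unadjusted p under 0.05. Snhg6, Epb41l4aos and Snhg12 lay between 10.6 and 24.2 CPM in every sample, and the groups did not overlap in Epb41l4aos (log2 change -0.13). Snhg20 had 6.63, 6.59 and 6.42 CPM in uninjured and 7.78, 7.86 and 8.22 CPM in injured samples, also with no overlap (log2 change 0.28, edgeR adjusted p 0.372). Of 2 imprinted members tested, H19 and Meg3, 0 passed by either tool, and Meg3 had an unadjusted p of 0.0388. Of 6 neural members 0 passed by either tool, with Meg3 again the 1 at an unadjusted p under 0.05. Hotair, of the HOXC cluster, had 0.442 CPM over the 6 samples and was not called by either tool.

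Protein-coding neighbours of rising members rose at a share near that of protein-coding windows in general. The neighbour was the gene with the nearest start of any transcript, read in the window at its 5′-most start. That window need not be the nearest promoter. Of the 167, 156 had a neighbour that was tested, and in 3 of these pairs (1.92%) it rose. The share was 1.41% for members that were not called and 2.2% over all protein-coding windows. Some genes recur among the pairs, as Prdm1 does for Gm47389 and Gm35028. The median log2 change of the neighbour over the 156 pairs was -0.064, and in 6 pairs the neighbour fell. Of the 27 members that fell, 2 had a neighbour that fell, beside 78 of 2335 members not called and 2.34% of all protein-coding windows. Across 2518 pairs of member and neighbour, which share libraries and scaling, the log2 changes had a Pearson r of 0.053 and a Spearman rho of 0.081, given as a description. The neighbours of the largest rises had log2 changes of -0.21 (Vps37b), 0.66 (En1), -0.12 (Mtap), -0.075 (Dusp4), -0.43 (Rab17), 0.11 (Bmp4), 0.21 (Prdm1) and -0.14 (Trib1), with edgeR adjusted p-values from 0.150 (En1) to 0.878 (Bmp4).

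AP-1 letters were common in the members that opened. A match to TGANTCA lay in the window of 132 of the 167 members that rose (79.0%), 5 of the 27 that fell (18.5%) and 1262 of the 2551 not called (49.5%). Over all windows of this length it lay in 48.7% of members and 37.4% of protein-coding windows. Within 200 bp of the start the shares were 29.9% of rises and 15.1% of members not called, beside 7.68% of all protein-coding windows. Read the other way, 9.44% of members with a match rose and 2.60% of members without, and for protein-coding windows the same shares were 4.21% and 1.12%.

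For the other 3 motifs, searched on both strands, the shares in rises and in members not called were closer. The TATA box TATAAA lay in the window of 64.1% of members that rose and 69.9% of those not called. The ETS consensus CCGGAAG lay in 14.4% and 12.8%, and the SP and KLF consensus GGGCGG in 32.9% and 35.9%. Over all protein-coding windows these motifs lay in 59.5%, 25.0% and 67.4%. GGGCGG can lie inside CpG-rich sequence, and 1 member that rose and 3 that fell were CpG-rich.

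AP-1 matches lay at the open point of the window more often in rises than in other members. The 100 bp with the most cut sites over the 6 samples had their centre within 200 bp of the start in 36.5% of members that rose, 34.2% of members not called and 64.4% of protein-coding windows not called. A match lay within 100 bp of that centre in 96 of the 167 rises (57.5%), 1 of the 27 falls (3.70%) and 13.9% of members not called. For protein-coding windows the same shares were 36.7% of rises, 2.31% of falls and 5.33% of those not called. The place of the centre is less sure where cut sites are few. Median levels were 3.11 CPM in rises, 5.65 CPM in falls and 1.03 CPM in all members tested. For Gm29346, Gm33968 and Gm19510 the open point near the printed match was 730 bp before, 750 bp after and 930 bp before the start. A match is a description of the letters and not evidence of binding.

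The members were also read in each cell class, as a description. In sums over cells, of a sample or of a class, more open cells and wider opening per cell cannot be told apart. Clusters were made without the bins that touch a lincRNA window, and 4 of 15 clusters (2402 of 4476 cells) were called horizontal basal cell-like from markers. Uninjured cells of this class lay in clusters 2 and 4 but for 6 cells, and injured cells in clusters 1 and 5 but for 15. Clusters 1 and 5 were led by Krt16, Krt6a, Plaur and Il1rn, genes of wounded epithelium and inflammation. Clusters were also called respiratory and ciliated-like, mature olfactory sensory neuron-like and sustentacular-like, and 8 clusters stayed unnamed. Every name but horizontal basal cell-like needed a marker of its list among the cluster's leading genes. Clusters 1 and 5 had 0 such markers and were named through this exception.

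Within basal-like cells alone the rises had a larger median. Of the 167 members that rose, 157 were tested there, and 157 rose with an adjusted p under 0.05 (edgeR), a count that the choice largely sets since these cells are among those in which the members were called. They had a median log2 change of 2.68 against 1.96 in all cells for the same members. Of the 27 that fell, 26 were tested and 24 passed, a count set in the same way, with a median of -1.57 against -1.15. In that fit 394 members rose of 1365 tested (28.9%, beside 12.3% of all windows) and 115 fell (8.42%, beside 9.45%). Without the shared barcodes 394 rose and 116 fell there. The filter on low counts was applied anew to these cells, and 2745 members were tested in all cells. It can favour windows open in only 1 group, so the shares of the 2 fits are not like for like. Shares of protein-coding windows and shares by level are not given for basal-like cells. Gm43661 had 0.692, 0.316 and 0.512 CPM in basal-like cells of the uninjured samples and 21.1, 23.1 and 14.3 CPM in those of the injured samples. Its log2 change there was 5.70.

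Injured replicate 3 had both a lower level of the rises and a smaller share of basal-like cells, and a link between them was not tested. Over the 167 rises the median level in all cells was 6.24, 5.34 and 3.37 CPM in injured replicates 1 to 3, and injured replicate 3 was the lowest of its group in 143 of them. Without TMM, the scale of the values in basal-like cells, these medians were 5.52, 4.69 and 3.29 CPM, with injured replicate 3 the lowest in 130. In basal-like cells the medians were 6.50, 7.12 and 7.11 CPM, and injured replicate 3 was the lowest in 55. In uninjured samples the medians were 0.991, 1.20 and 1.17 CPM in all cells and 0.923, 1.11 and 1.02 CPM in basal-like cells. Over the 27 falls uninjured replicate 3 was the lowest in all cells, at 6.16 CPM against 8.86 and 9.77, and the highest in basal-like cells, at 15.4 CPM against 13.6 and 12.8. The shares depend on which clusters are called basal-like. Cluster 3, left unnamed, held 28.4% of the barcodes of injured replicate 3. Its mean log2 score for horizontal basal cell markers was 0.60 and for respiratory and ciliated ones 0.62, while basal-like cluster 1 had 0.52 and cluster 5 had 0.60 for horizontal basal cell markers, with 0 of these markers among the 10 leading genes of either.

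**Figure D4:**
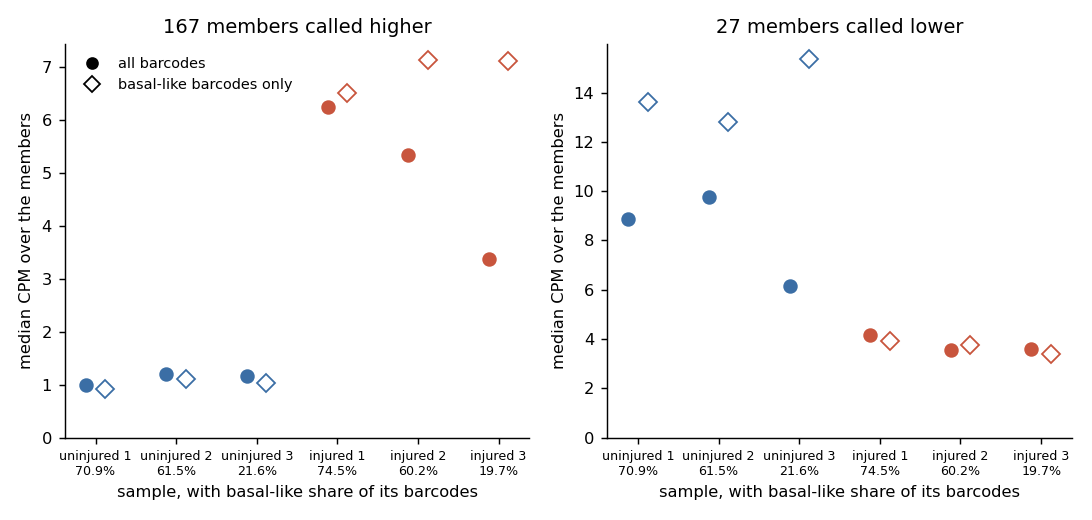
Median CPM (y axis, from 0) over the 167 members called higher (left) and the 27 called lower (right) in each sample (x axis, with the share of its barcodes called basal-like); filled circles are all barcodes, scaled with TMM, and open diamonds basal-like barcodes only, scaled without it. In basal-like barcodes the third replicates lie level with the others, at 7.11 CPM for injured replicate 3 and 15.4 CPM for uninjured replicate 3.

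Most rising members were highest in injured basal-like cells. Of the 167 rises, 124 (74.3%) had their highest level in injured basal-like cells, against 7.13% of members not called, which is partly set by the calls themselves. The other 43 were highest elsewhere, 14 of them in cluster 3. Of these, 5430425K12Rik, named after its values were seen, had 48.5 CPM in cluster 3, 34.5 CPM in injured and 24.7 CPM in uninjured basal-like cells. The median level of the 167 was 6.95 CPM in injured basal-like cells, 0.983 CPM in uninjured basal-like cells, 2.39 CPM in cluster 3 (unnamed, almost all injured cells, led by Prss30 and Tgm1), 1.48 CPM in cluster 7 (unnamed) and 0.318 CPM in neuron-like cells. Gm48912 and AL805899.2 were also open in cluster 3, at 11.02 and 8.59 CPM, while Gm29346 had 2.01 CPM there and 24.2 CPM in injured basal-like cells. Levels of classes are pooled over samples and carry no test.

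Members that fell were often most open in sustentacular-like cells, the supporting cells of the epithelium. Of the 27 falls, 13 (48.1%) had their highest level in that class and 9 (33.3%) in uninjured basal-like cells, against 11.6% and 9.06% of members not called. These shares are partly set by the calls themselves, since the 106 cells of that class came from the 3 uninjured samples (4, 68 and 33) but for 1. Gm41177 had 52.2 CPM in sustentacular-like cells, at 52.7 and 56.0 CPM in the 2 samples with 30 or more such cells, against 21.7 CPM in uninjured and 5.68 CPM in injured basal-like cells. Gm15348 had 24.7 CPM there and 8.56 CPM in uninjured basal-like cells, and 9530020I12Rik 16.95 and 15.98 CPM. In 9530020I12Rik the order turned with the library, at 19.9 CPM in sustentacular-like cells of uninjured replicate 2 and 12.7 CPM in those of uninjured replicate 3, where basal-like cells had 15.4 CPM. 1200007C13Rik and 4930572O13Rik were highest in uninjured basal-like cells when pooled, at 32.7 and 12.9 CPM. Single libraries went the other way, since 1200007C13Rik in uninjured replicate 3 had 32.2 CPM in cluster 6 and 25.4 CPM in basal-like cells, and 4930572O13Rik in uninjured replicate 2 had 20.5 CPM in cluster 7 and 12.8 CPM in basal-like cells. Summed over 8 promoters of sustentacular markers, the level was 62.2 to 82.1 CPM in uninjured and 47.4 to 54.6 CPM in injured samples, lower without overlap. Within basal-like cells alone 24 of the 26 falls tested passed, a count that the choice largely sets, as given above. Gm41177 fell there by 1.73 on the log2 scale. The part of sustentacular cells in the falls was not tested.

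Some members were open mainly in 1 class. They were picked after their levels were seen, as the members of at least 10 CPM in a class with the highest ratio to every other class. F730016J06Rik had 20.4 CPM in sustentacular-like cells, at 24.3 and 14.5 CPM in 2 samples, and at most 0.951 CPM elsewhere. Gm13842 had 20.6 CPM there and at most 1.95 CPM elsewhere, and Pinc, first described in the mammary gland, 11.5 and at most 2.16 CPM. Within uninjured replicate 2 Gm13842 had 22.6 CPM in sustentacular-like cells and 6.30 CPM in cluster 7. The level of Pinc rests on 1 library, at 15.8 CPM in uninjured replicate 2 and 3.61 CPM in uninjured replicate 3, where basal-like cells had 3.59 CPM. In neuron-like cells A930014D07Rik had the highest ratio, with 11.3 CPM and at most 1.63 CPM in any other class. AC153155.1, AC153155.2 and Gm26889 came next, with 24.7, 24.5 and 10.7 CPM and at most 5.49, 5.49 and 2.63 CPM elsewhere. Gm36120 had 26.9 CPM and Gm34354 20.4 CPM, with at most 8.00 and 6.44 CPM in any other class. Within injured replicate 3 Gm34354 had 16.6 CPM in neuron-like cells and 9.38 CPM in cluster 10. At least 3 times the level of every other class was reached by 9 members in sustentacular-like cells and by 9 in neuron-like cells.

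**Figure D5:**
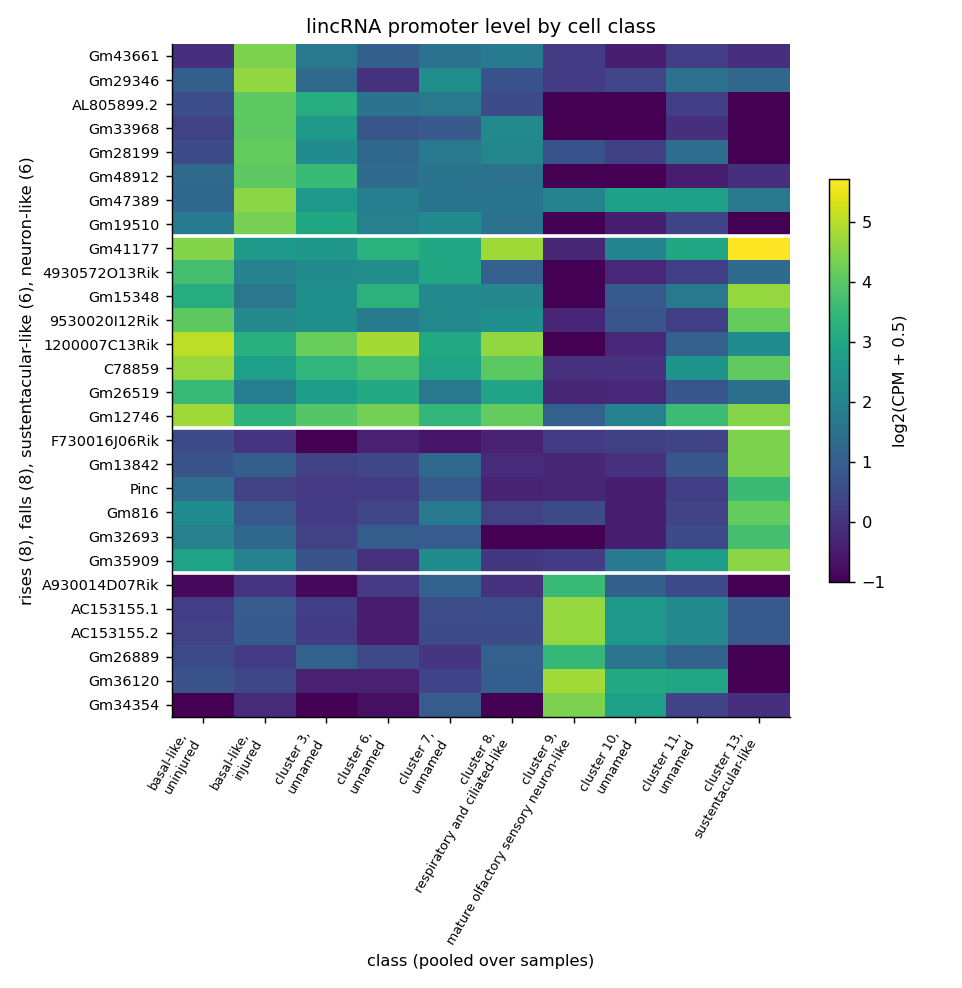
Level as log2(CPM + 0.5) by colour of 28 members (rows: the 8 largest rises, the 8 largest falls and 6 members each open mainly in sustentacular-like or neuron-like cells) in 10 classes of cells (columns). The rises are bright in injured basal-like cells, at 15.96 to 24.2 CPM, and several falls are bright in both uninjured basal-like and sustentacular-like cells.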

How the data were processed

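The data were 10x Genomics single-cell ATAC-seq of 6 samples, 1 library each. The authors deposited, per sample, a list of deduplicated fragments with the count of read pairs behind each, and a matrix of raw counts per peak that was not used here. Per the submitters' processing notes, Cell Ranger 2.0.0 and the build mm10 were used, while the headers of the deposited matrices name software version 1.2.0. All fragment ends lay within GRCm38 chromosomes.

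Barcodes with 2000 or more fragments were summed per sample, and both fragment ends were counted as cut sites in windows of lincRNA and protein-coding genes (GENCODE M21). How reads from repeated copies were aligned is not given in the sources used here. Windows passing filterByExpr (minimum count 10) entered 1 edgeR 4.0.16 quasi-likelihood fit (robust, TMM) in R 4.3.3, with Benjamini-Hochberg adjustment and a threshold of 0.05. The common biological coefficient of variation was 0.165, and the median over members was 0.374. Depth limits precision, and members had a median of 0.391 CPM. On simulated counts the fit recovered 29 of 200 members changed by a log2 of 1 (14.5%) and 124 of 200 changed by 2 (62.0%), with 6 and 16 unchanged windows called. For single values the 3 samples of each group were compared with a two-sided exact permutation test.

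Cells were clustered on 174353 bins of 500 bp that touch no lincRNA window (30 SVD components less 2 that followed depth, 15 neighbours, Leiden resolution 0.5; scikit-learn 1.9.0, igraph 0.11.9, Python 3.11.15). Clusters were named from marker lists read over gene bodies. A name needed a marker of its list among the leading genes. Horizontal basal cells were the exception, since the sort was for traced basal cells. No doublet caller was run and no doublets were removed. Clusters 12, 14 and 15 (201 cells) were left out of class values, and class levels are cut sites per 1000000 of the class, without TMM. Motifs were searched in the GRCm38 sequence.

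For each direction the text names the 8 called members whose log2 change was largest, given a mean of at least 5 CPM and no overlap between the groups. It also names the 5 members with the highest mean CPM, and members of 7 lists of known long noncoding RNAs that passed, with up to 4 others of each. The members, lists, markers and tests were chosen with earlier results of these data known. Alternatives were other scalings, DESeq2 1.42.0, no filter, other windows and counting, 5000 fragments per barcode, basal-like cells only, another exclusion distance, a replicate block and each replicate left out. Leaving out shared barcodes and the locus on chromosome 17 were chosen after the data were seen.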

Additional observations from a re-analysis of the deposited data

How the results depend on the processing

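The direction of change relative to all windows depends on the scaling, as the report gives: 345 members were lower with TMM factors from bins of 10 kb and 183 with total cut sites, against 27. Gm6410 was not called in the main fit (log2 change 0.13, edgeR adjusted p 0.308). With the bins it was called lower (log2 change -0.38, edgeR adjusted p 0.0381). DESeq2 gave 237 higher and 46 lower, basal-like cells only 394 and 115, and basal-like cells without shared barcodes 394 and 116. Leaving out 1 replicate each, so that 2 samples stood against 3, gave 44 to 269 higher and 4 to 47 lower. Counts of higher and of lower members stayed within 1.5 times with windows of 500 bp, fragments counted once, no filter on low counts, 5000 fragments per barcode, both other exclusion rules and without shared barcodes. The cause of these differences was not tested. The numbers 1 to 3 were not shown to pair the samples, and the main fit had no replicate block. Deviations of same-numbered samples correlated at 0.026, 0.13 and 0.18. Injured replicate 1 correlated best with uninjured replicate 2 (0.12), and injured replicates 2 and 3 with the uninjured sample of the same number. Same-numbered samples had the same ages. Their shares of basal-like barcodes were 70.9% and 74.5%, 61.5% and 60.2%, and 21.6% and 19.7%, uninjured first. The replicate 3 samples also shared 34 barcodes. A pairing by design was not tested. With a replicate block 255 members were higher and 61 lower, and the share over all windows is not given for this fit. For single values per sample the block leaves the mean difference as it is by construction. Taken per 100 cut sites in protein-coding windows, the members' difference turned to 0.569. Without the locus on chromosome 17 the difference in start enrichment turned to -0.129. No permutation test of 3 against 3 could pass 0.05, so these say nothing about stability. Members under 1 CPM had few cut sites, and 1.49% of those tested rose.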

Other observations

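Rises did not gather near coding genes. They made up 4.89% of members tested at 2 to 10 kb from a protein-coding start, 5.53% at 10 to 50 kb, 7.22% at 50 to 200 kb and 5.99% beyond 200 kb. Of 144 single-exon members tested 3.47% rose, and of 2601 with more exons 6.23%. Of the 60 CpG-rich members tested 1 rose and 3 fell, and of 6387 CpG-rich protein-coding windows tested 0.485% rose and 3.90% fell. Windows of members that were at least 50% soft-masked repeats seldom had enough cut sites to test (79 of 359). How reads from repeated copies were aligned is not given, so this need not mean that they were less open.

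Clusters that stayed unnamed also had members of their own, picked after their levels were seen. Cluster 10, led by Gap43, Calb2, Rtp2, Rd3, Stmn2 and Slc17a6, had all 7 mature olfactory sensory neuron markers above the median cluster. Its mean log2 score was 3.02 for these markers and 2.36 for those of immature neurons and precursors. It stayed unnamed, since its 10 leading genes held 0 mature neuron markers and 2 of another list. It had 15.8 CPM of Gm13016 and at most 4.67 CPM in another class. Cluster 11, led by Nhlh1, a factor of neuronal precursors, had 11.95 CPM of Gm831 and at most 2.97 CPM elsewhere. In respiratory and ciliated-like cells Gm44009 had 15.6 CPM and at most 4.82 CPM elsewhere. Of its 186 cells 167 came from uninjured replicate 3, so the class and the library cannot be told apart.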
